A study of Homo with 4 samples.

Results

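The 10 genes described here make and break down polyamines or control those steps. They were chosen by name from the 20263 genes counted. ODC1, AMD1, SRM and SMS carry the synthesis route, OAZ1, OAZ2 and AZIN1 set the stability and activity of the ODC1 protein, and SAT1, SMOX and PAOX carry the catabolic route. The set was picked around ODC1 because its level was already known to be lower in shIGF2BP3 in these libraries, so its difference between the groups is given below as a description with no test. All 10 genes had reads in every library and all 10 passed the filter on low counts.

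Polyamines are small positively charged molecules that bind nucleic acids and are needed by dividing cells. Ornithine decarboxylase (ODC1) makes putrescine from ornithine, and S-adenosylmethionine decarboxylase (AMD1) supplies the aminopropyl groups that spermidine synthase (SRM) and spermine synthase (SMS) add to it. The antizymes (OAZ1, OAZ2) are translated through a ribosomal frameshift that polyamines promote. Antizyme sends ODC1 to the proteasome, and the antizyme inhibitor AZIN1 competes with ODC1 for it. Much of this control acts on translation and protein stability, which RNA levels do not show.

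The H1299 line was established from a human non-small cell lung cancer. Cells that stably expressed a scramble control hairpin (shCtrl, 2 libraries, labelled as wild type for IGF2BP3) were compared with cells that stably expressed a hairpin against IGF2BP3 (shIGF2BP3, 2 libraries), an RNA-binding protein of the IGF2 mRNA-binding family. Both groups had therefore taken up a hairpin vector by lentivirus and grew in the same serum-supplemented medium. Which of the study's hairpins the shIGF2BP3 libraries carry, and whether they are separate infections, is not stated, so their spread may include a difference between hairpins.

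The libraries held 29709686 to 34817513 estimated counts, and mitochondrially encoded genes took 9.11% to 17.02% of them. IGF2BP3 itself was at 41.1 and 32.9 CPM (counts scaled to library size with TMM factors) in shCtrl and 26.4 and 24.8 in shIGF2BP3. This was a log2 fold change of -0.53 ± 0.17 (SE), lower in both shIGF2BP3 libraries (edgeR's quasi-likelihood test, adjusted p = 0.472). The level was 69.1% of that in shCtrl, and the fold change of 1.45 was under the 1.5 used for calls below. On the log2 scale it ran from -0.68 to -0.36 when each library was left out. Of the 5 epithelial markers read, KRT8 and KRT18 were at 698.4 CPM or more in every library, whereas KRT19, EPCAM and CDH1 were at 0.354 CPM or less. The mesenchymal VIM was at 4336.7 CPM or more and CDH2 at 28.4 to 37.2. Of the blood markers, PTPRC and CD3E were at 0 and LYZ at 0.295 CPM or less, but CD68 was at 44.4 to 49.9. The endothelial PECAM1, VWF and CDH5 reached at most 0.266 CPM, and the fibroblast COL1A1 and PDGFRB at most 1.07.

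Per transcript length, the antizyme OAZ1 was the most abundant of the 10 mRNAs and the oxidase PAOX the least. FPKM, which is scaled by transcript length as well as library size, was used for this order because it allows comparison between genes. In shCtrl, OAZ1 was at 700.5 ± 5.49 FPKM (SD, n = 2), apart from every other gene. SMS (169.3 ± 15.4), SRM (157.5 ± 7.6) and ODC1 (146.8 ± 27.9) came next, and the libraries of neighbours in this order overlapped. AZIN1 (39.9 ± 12.4) overlapped with OAZ2 (39.0 ± 1.3), as did SAT1 (21.8 ± 0.407) with AMD1 (20.0 ± 4.94). SMOX was at 10.2 ± 0.903 FPKM and PAOX at 0.957 ± 0.0643. In shIGF2BP3 the same genes stood at the top and the bottom, but ODC1 was at 80.7 ± 16.2 FPKM, under SMS (179.8 ± 4.46) and SRM (178.4 ± 14.9) in every library. AMD1 was at 29.4 ± 3.4 FPKM there.

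**Figure D1:**
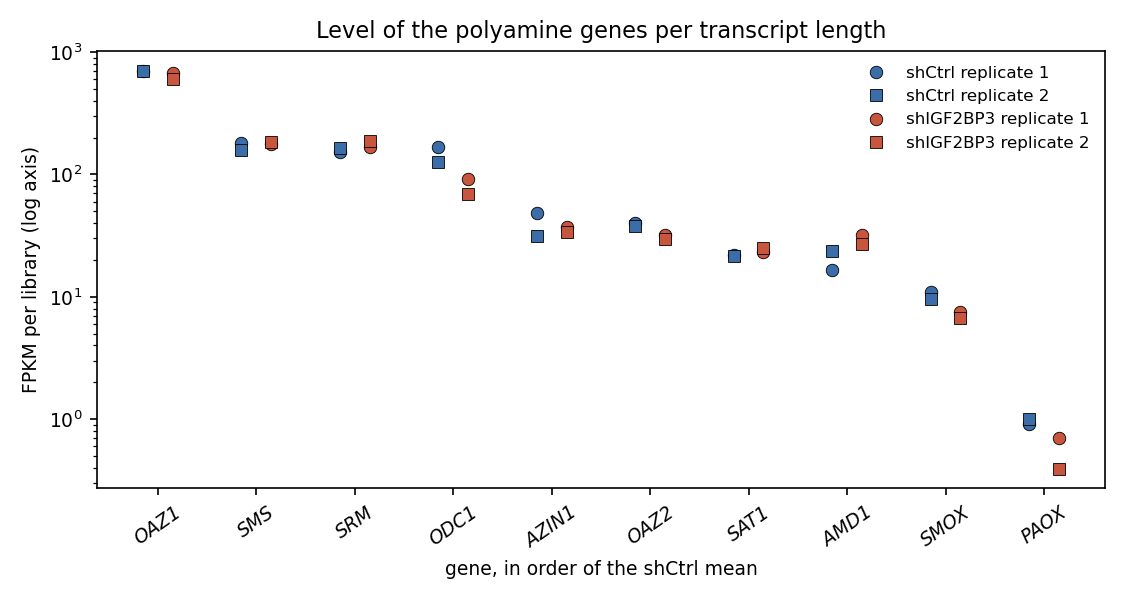
FPKM of the 10 polyamine genes in each library, on a log axis, with the genes in order of their shCtrl mean. OAZ1 lies above all others at 598.9 to 704.4 FPKM, PAOX lies lowest at 0.395 to 1.0, and ODC1 is the gene near the top whose shIGF2BP3 points fall clearly below its shCtrl points.

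In the synthesis route, AMD1, SRM and SMS had estimates above 0 in shIGF2BP3, with intervals that held 0, beside ODC1, which was selected for its lower level. A gene was called at a fold change of 1.5 or more and an unadjusted p of 0.05 or less. At these thresholds 5.32% of the 13379 genes tested were called, 2.54% higher and 2.78% lower in shIGF2BP3. Of the 9 genes other than ODC1, 0 were called in either direction, and 1 (SMOX) had a p within 0.05 before adjustment, compared with 10.5% of all genes. At an adjusted p under 0.05, edgeR called 0 of the 9 and 0.0% of all genes, and DESeq2 called 0 of the 9 and 1.2% of all genes. The median log2 fold change of the 9 genes was -0.07, beside -0.002 for all genes tested.

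ODC1 (ENSG00000115758, GRCh38, chromosome 2, 10439968 to 10448504, minus strand) catalyses the entry step into the pathway and has a very short-lived protein. It was at 403.8 and 379.1 CPM in shCtrl and at 273.3 and 230.1 CPM in shIGF2BP3. Both knockdown libraries were below both controls, at 64.3% of the shCtrl level. In bulk RNA, fewer cells with a transcript and less of it per cell cannot be told apart. Its log2 fold change was -0.64, and it ran from -0.86 to -0.63 under the other processing settings and from -0.76 to -0.52 when each library was left out. ODC1 was selected on this difference. Among all genes tested, 5.4% had a lower log2 fold change.

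AMD1 (ENSG00000123505, chromosome 6, 110874770 to 110895713, plus strand) supplies decarboxylated S-adenosylmethionine, the donor for both aminopropyl transfers. It was at 58.8 and 97.3 CPM in shCtrl and at 120.1 and 115.7 CPM in shIGF2BP3. The groups did not overlap, but the shCtrl libraries were far apart (78.0 ± 27.2, SD, n = 2) and the shIGF2BP3 libraries close together (117.9 ± 3.14). An estimate of 0.60 ± 0.25 (SE) on the log2 scale had a 95% interval of -0.04 to 1.23 and an adjusted p of 0.48, and it was higher in 2 of 2 shIGF2BP3 libraries. It depended on the controls, being 0.28 without shCtrl replicate 1 and 1.00 without shCtrl replicate 2. AMD1 was called without shCtrl replicate 2, with DESeq2, with no low-count filter and with the replicate number as a block. Its adjusted p was 0.333 with DESeq2 and ran from 0.333 to 0.994 over all alternatives. RefSeq holds 4 pseudogenes named after AMD1, which may share reads with it.

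SRM (ENSG00000116649, chromosome 1, 11054589 to 11060024, minus strand), which makes spermidine, was at 204.9 and 244.3 CPM in shCtrl and 239.9 and 294.5 in shIGF2BP3. These ranges overlapped. SMS (ENSG00000102172, chromosome X, 21940573 to 21994835, plus strand), which makes spermine, was at 354.3 and 347.0 CPM in shCtrl and 368.7 and 418.1 in shIGF2BP3, with no overlap. On the log2 scale the difference was 0.25 (95% interval -0.18 to 0.68, adjusted p = 0.588, edgeR) for SRM and 0.17 (-0.17 to 0.50, adjusted p = 0.647) for SMS. The SRM interval reaches past a fold change of 1.5, and RefSeq holds 3 pseudogenes named after SRM and 1 named after SMS.

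None of the regulators of the ODC1 protein was called. OAZ1 (ENSG00000104904, chromosome 19, 2269509 to 2273490, plus strand) is the main antizyme. Its levels were 801.8 and 893.4 CPM in shCtrl and 804.2 and 776.8 in shIGF2BP3, which overlapped. OAZ2 (ENSG00000180304, chromosome 15, 64687573 to 64703281, minus strand), a related antizyme, was at 81.3 and 85.5 CPM in shCtrl and 69.0 and 70.2 in shIGF2BP3. Here the replicates were close and the groups apart. On the log2 scale the difference was -0.10 (95% interval -0.44 to 0.24, adjusted p = 0.781, edgeR) for OAZ1 and -0.26 (-0.58 to 0.05, adjusted p = 0.509) for OAZ2. OAZ1 has 1 pseudogene in RefSeq and an overlapping gene on its own strand, either of which may share reads with it.

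AZIN1 (ENSG00000155096, chromosome 8, 102826357 to 102872412, minus strand) resembles ODC1 without its enzyme activity and binds antizyme in its place. It was at 244.4 and 172.5 CPM in shCtrl and at 198.1 and 198.2 in shIGF2BP3. The knockdown libraries lay between the controls. The log2 fold change was -0.07 (95% interval -0.56 to 0.42, adjusted p = 0.896, edgeR), and its sign turned to 0.20 without shCtrl replicate 1.

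In the catabolic route, the acetyltransferase and the oxidases had estimates of opposite sign. SAT1 (ENSG00000130066, chromosome X, 23783173 to 23786226, plus strand) acetylates spermidine and spermine for export or oxidation. It was at 25.1 and 26.8 CPM in shCtrl and 28.0 and 33.5 in shIGF2BP3. The lowest shIGF2BP3 library was closer to the controls than to its replicate, with a log2 fold change of 0.25 (95% interval -0.17 to 0.66, adjusted p = 0.586, edgeR).

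SMOX (ENSG00000088826, chromosome 20, 4148779 to 4187747, plus strand) oxidises spermine back to spermidine and releases hydrogen peroxide. It was at 26.2 and 25.9 CPM in shCtrl and 19.3 and 18.7 in shIGF2BP3, so that replicates agreed closely and the groups were apart. The log2 fold change was -0.45 ± 0.15 (SE), 73.1% of the shCtrl level, with a 95% interval of -0.83 to -0.08. It stayed between -0.47 and -0.43 when each library was left out. Its adjusted p of 0.472 (edgeR) did not pass, it was lower in 2 of 2 shIGF2BP3 libraries, and its fold change of 1.37 was under the 1.5 needed for a call.

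PAOX (ENSG00000148832, chromosome 10, 133379234 to 133391694, plus strand) is the peroxisomal oxidase of acetylated polyamines. It rested on 71 and 68 counts in shCtrl and 50 and 26 in shIGF2BP3, or 1.89 and 2.01 against 1.45 and 0.944 CPM. The groups were apart, but the log2 fold change of -0.69 had a wide 95% interval of -1.51 to 0.12 and an adjusted p of 0.498 (edgeR). Another gene on the same strand overlaps PAOX, and the counting could split reads between them.

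Of the 9 genes other than ODC1, 3 (AMD1, SMS and SAT1) had both shIGF2BP3 libraries above both controls in CPM, and 3 (OAZ2, PAOX and SMOX) had both below. Among all genes tested these shares were 23.3% and 23.5%, and 46.8% of genes separated in either direction, so such separation of 2 against 2 libraries was common in this series.

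**Figure D2:**
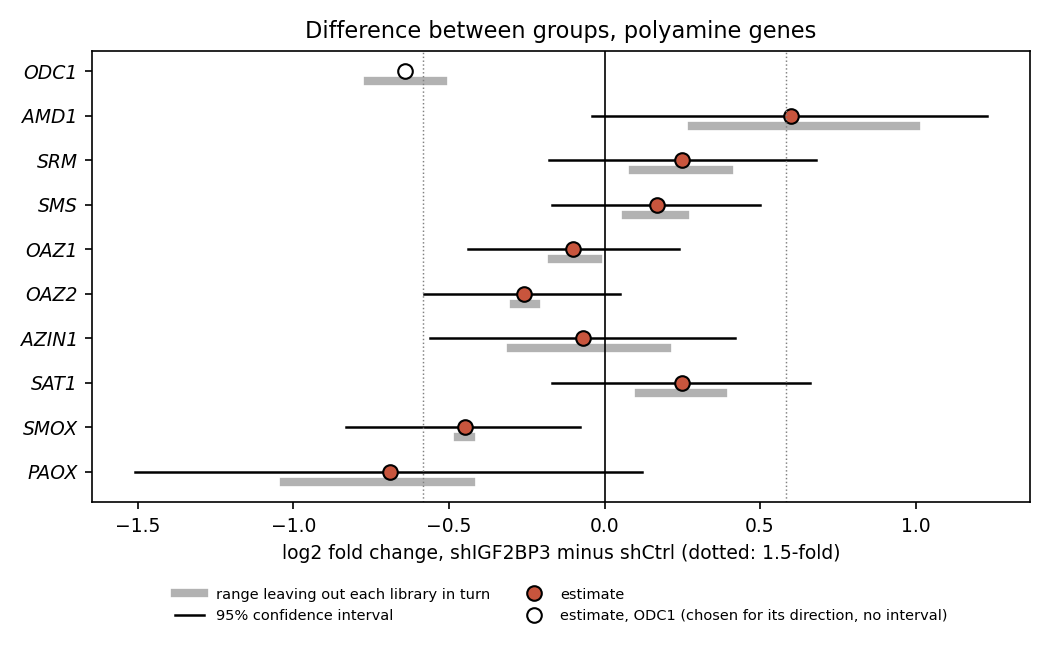
Log2 fold change (shIGF2BP3 minus shCtrl) of each gene, with its 95% interval as a line and, in grey, the range when each library is left out, beside dotted lines at 1.5-fold. ODC1 (open point, no interval) lies at -0.64, AMD1 at 0.60 with a leave-out range of 0.28 to 1.00, and SMOX is the tested gene whose interval does not reach 0.

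The lower ODC1 level was not spread evenly over its transcripts. ENST00000234111 spans the whole gene, and ENST00000405333 (10440601 to 10447780) lies inside it, starting 724 bases downstream and ending 633 bases earlier. ENST00000405333 had 7624 and 2550 estimated counts in shCtrl and 726 and 0 in shIGF2BP3. This was 50.2% and 19.8% of the gene in shCtrl and 7.70% and 0.0% in shIGF2BP3, where 0 of 6339 counts allows a share of up to 0.0473% (counting error only). In CPM it was at 202.7 and 75.2 in shCtrl and 21.0 and 0.0 in shIGF2BP3.

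The full-length ENST00000234111 was at 200.3 and 303.9 CPM in shCtrl and 252.3 and 230.1 in shIGF2BP3. Both knockdown libraries lay between the controls. Summed without ENST00000405333, a sum chosen after the transcript values were seen, ODC1 averaged 252.4 CPM in shCtrl and 241.2 in shIGF2BP3, a log2 ratio of -0.07. With all transcripts the means were 391.4 and 251.7 CPM and the log2 ratio -0.64. The difference was -139.7 CPM with that transcript and -11.3 CPM without it. The remainder rested on single libraries. It was -62.7 CPM (log2 ratio -0.33) without shCtrl replicate 1, 40.2 CPM (0.26) without shCtrl replicate 2, -22.3 CPM (-0.13) without shIGF2BP3 replicate 1 and -0.2 CPM without shIGF2BP3 replicate 2.

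The share of ENST00000405333 also differed widely between the controls, by 30.4 percentage points. Among 7287 transcripts with a mean share of at least 10% of a gene with 1000 counts or more in each library, the median difference between the shCtrl libraries was 4.71 points, and 87.1% of them differed by less than ENST00000405333. Between the shIGF2BP3 libraries its share differed by 7.70 points, beside a median of 4.74. Transcript counts are estimates that divide reads among overlapping transcripts, so the share carries that uncertainty on top of the counts. As a share of FPKM, ENST00000405333 took 57.6% and 25.3% of ODC1 in shCtrl and 10.2% and 0.0% in shIGF2BP3.

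Neither ODC1 nor the other 9 genes had a transcript whose share passed a test. For ODC1, the unadjusted p (edgeR's diffSpliceDGE) was 0.213 for ENST00000405333 and 0.77 for ENST00000234111. Of 28 transcripts of the 9 genes that could be tested against the rest of their gene (edgeR's diffSpliceDGE), 0 had an unadjusted p of at most 0.05, compared with 4.51% of all 33125 transcripts tested. None passed after adjustment, where 0.83% of all transcripts did. AMD1 was carried mostly by ENST00000368885, at 84.3% and 96.3% of the gene in shCtrl and 61.6% and 99.5% in shIGF2BP3. ENST00000368882, which starts 14 bases further on, took 10.1% and 0.0% in shCtrl and 38.4% and 0.0% in shIGF2BP3. It had counts in 1 library of each group, so its mean share in shIGF2BP3 was set by replicate 1 alone.

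OAZ1 was divided between ENST00000602676 and ENST00000582888. ENST00000602676 took 54.0% and 50.3% of the gene in shCtrl and 45.6% and 41.2% in shIGF2BP3. ENST00000582888 took 42.9% and 46.5%, then 51.5% and 55.4%. In counts, the order of these transcripts was thus turned in both knockdown libraries, with an adjusted p of 1.0 for either (diffSpliceDGE). As a share of FPKM, ENST00000602676 took 49.6% and 46.1% in shCtrl and 41.3% and 37.1% in shIGF2BP3. ENST00000582888 took 46.8% and 50.4%, then 55.4% and 59.1%. On that scale shCtrl replicate 2 had the same order as the knockdown libraries. For SAT1, the short ENST00000379253, which ends 1815 bases earlier, took 8.06% and 13.7% in shCtrl and 3.62% and 3.36% in shIGF2BP3. SAT1 was otherwise ENST00000379270, at 89.2% and 83.2% in shCtrl and 92.0% and 96.5% in shIGF2BP3.

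A single transcript took most of the remaining genes. ENST00000376957 held 98.1% to 98.9% of SRM, ENST00000404933 97.6% to 99.2% of SMS and ENST00000337198 95.6% to 97.9% of AZIN1. ENST00000326005 held 80.6% to 88.9% of OAZ2, with 10.6% to 18.0% in ENST00000560258. ENST00000305958 held 84.5% and 83.9% of SMOX in shCtrl and 83.5% and 70.7% in shIGF2BP3. PAOX was spread over ENST00000278060, ENST00000356306 and ENST00000357296, on too few counts for a test.

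**Figure D3:**
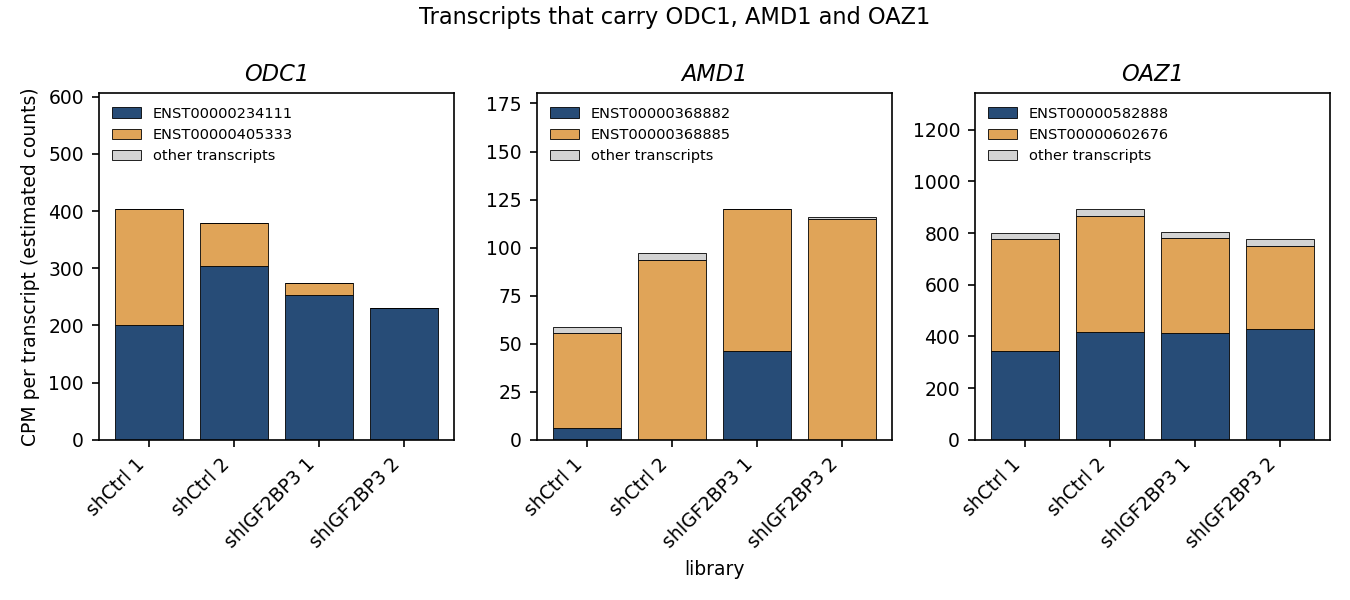
CPM of the transcripts of ODC1, AMD1 and OAZ1 in each library, stacked, from the estimated counts. In ODC1 the ENST00000405333 part is 202.7 and 75.2 CPM in shCtrl and 21.0 and 0.0 in shIGF2BP3 while ENST00000234111 stays between 200.3 and 303.9, and in AMD1 the ENST00000368882 part appears in replicate 1 of each group.

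Ratios within a library set opposing genes side by side, on the FPKM scale. With 2 libraries a group, an exact permutation test (two-sided) cannot go below 0.333, so no test was made, and each ratio that holds ODC1 contains the level it was selected on. OAZ1 was 4.18 and 5.54 times ODC1 in shCtrl and 7.28 and 8.65 times in shIGF2BP3. Both antizymes over ODC1 plus AZIN1, the proteins that antizyme binds, gave 3.42 and 4.69 in shCtrl and 5.43 and 6.09 in shIGF2BP3. These groups were apart, on the CPM scale too, at 1.36 and 1.77 in shCtrl and 1.85 and 1.98 in shIGF2BP3. Without ODC1 they were not: the antizymes over AZIN1 gave 15.1 and 23.9 in shCtrl and 18.8 and 18.5 in shIGF2BP3.

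The 2 decarboxylases were closer to each other in shIGF2BP3, where ODC1 was selected for its lower level. ODC1 was 10.1 and 5.41 times AMD1 in shCtrl and 2.90 and 2.57 times in shIGF2BP3. AZIN1 over ODC1 was 0.292 and 0.245 in shCtrl and 0.405 and 0.490 in shIGF2BP3.

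Among ratios without ODC1, SMS over SRM was 1.19 and 0.973 in shCtrl and 1.05 and 0.968 in shIGF2BP3, which overlapped. OAZ1 over OAZ2 was 17.5 and 18.5 in shCtrl and 21.0 and 20.3 in shIGF2BP3. SAT1 over SMOX was 2.03 and 2.24 in shCtrl and 3.10 and 3.75 in shIGF2BP3. In the latter ratios the groups were apart, on the CPM scale too.

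**Figure D4:**
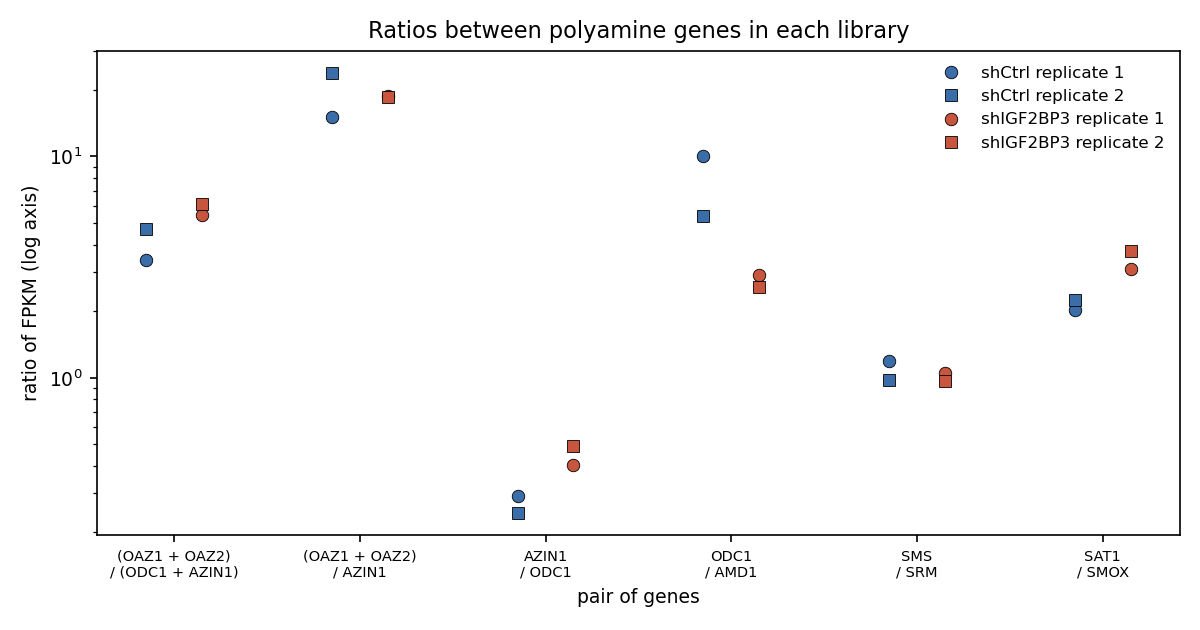
Ratio of FPKM between pairs of polyamine genes in each library, on a log axis. Both antizymes over ODC1 plus AZIN1 are 3.42 and 4.69 in shCtrl and 5.43 and 6.09 in shIGF2BP3. SMS over SRM stays between 0.968 and 1.19 with the groups mixed.

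The levels of ODC1 in the 4 libraries were compared with those of 8829 genes with a mean of at least 10 CPM, as log2 CPM around each gene's mean. The 5 nearest were TXLNA (distance 0.015), RETREG2 (0.036), CARD10 (0.048), NRF1 (0.058) and PPFIA3 (0.069). TXLNA, for example, was at 111.5 and 106.1 CPM in shCtrl and 76.3 and 64.2 in shIGF2BP3. Of the polyamine genes, SMOX was nearest at 0.242, in place 197, and AMD1 farthest at 1.413, in place 8422.

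The surrounding pathways were read from 6 lists with 65 genes, of which 51 were tested. In shIGF2BP3, 2 were called higher and 2 lower, beside 2.54% and 2.78% of all genes, and the median log2 fold change was -0.02 beside -0.002 for all genes. No list gene had an adjusted p under 0.05 by edgeR, 5 had a p within 0.05 before adjustment, and ATP13A3 had an adjusted p of 0.0113 by DESeq2, beside a range of 0.0113 to 0.835 over all alternatives. These shares were close to the background.

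Among 13 genes listed for the transport of polyamines and their precursors, 8 were tested, 1 was called higher and 0 lower, with a median of 0.16. ATP13A3, an endolysosomal and recycling-compartment P5B ATPase linked to polyamine uptake, was at 129.3 and 110.6 CPM in shCtrl and 184.3 and 192.7 in shIGF2BP3. The groups were well apart, with a log2 fold change of 0.65 ± 0.14 (SE) and an adjusted p of 0.472 (edgeR), higher in 2 of 2 libraries. It fell under a fold of 1.5 without shCtrl replicate 2 (0.54), with library totals (0.57) and with limma on FPKM (0.48 and 0.49). Its transcript ENST00000439040 was at 22.7 and 11.2 CPM in shCtrl and 62.5 and 38.5 in shIGF2BP3, and ENST00000429136 at 106.2 and 99.3, then 121.0 and 153.9. Both were higher in both knockdown libraries. ATP13A2, the lysosomal polyamine exporter of the same family, was at 57.3 and 67.6 CPM in shCtrl and 51.9 and 43.0 in shIGF2BP3, a log2 fold change of -0.40 that was not called. CAV1, with the largest mean CPM of the list but not the largest FPKM, was at 305.8 and 301.9 CPM in shCtrl and 288.6 and 312.2 in shIGF2BP3.

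In the supply of arginine and ornithine, 9 of 13 genes were tested, 1 was called higher and 1 lower, with a median of -0.18. ASL, which releases arginine from argininosuccinate, was at 69.0 and 67.7 CPM in shCtrl and 47.9 and 35.1 in shIGF2BP3. Both knockdown libraries were lower, with a log2 fold change of -0.72 ± 0.18 (SE) and an adjusted p of 0.472 (edgeR). Without shIGF2BP3 replicate 2 it was -0.51 and was no longer called. GATM, which uses arginine for creatine synthesis, was at 3.75 and 3.54 CPM in shCtrl and 5.07 and 6.28 in shIGF2BP3. Its log2 fold change was 0.64, and the call was lost with DESeq2, library totals, limma on FPKM and 3 of the 4 left-out libraries. OAT, which links ornithine to glutamate metabolism, had the largest mean CPM of the list over the 4 libraries, at 90.7 and 82.6 CPM in shCtrl and 100.3 and 106.7 in shIGF2BP3, and was not called.

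Of 7 genes listed as close relatives of the 10 genes, 5 were tested, 0 were called higher and 1 lower, with a median of -0.09. The list also holds enzymes, such as ALDH9A1, that are not of the families of the 10 genes. AZIN2, a second antizyme inhibitor, was at 3.91 and 4.75 CPM in shCtrl and 2.69 and 2.69 in shIGF2BP3. The log2 fold change was -0.69, on 74 to 161 counts, and the call was lost with DESeq2, with limma on log2(FPKM + 1) and without any library other than shCtrl replicate 1. ALDH9A1 had the largest mean CPM, at 71.8 and 57.5 CPM in shCtrl and 63.2 and 58.2 in shIGF2BP3, with overlapping groups.

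In the methionine cycle and the salvage of methylthioadenosine, the by-product of aminopropyl transfer, 12 of 14 genes were tested and 0 were called, with a median of -0.11. AHCY, which clears S-adenosylhomocysteine, had the largest mean CPM, at 560.4 and 630.0 CPM in shCtrl and 527.2 and 466.7 in shIGF2BP3. For the hypusination of eIF5A, which consumes spermidine, all 5 genes were tested and 0 were called, with a median of -0.20. EIF5A was at 906.4 and 981.7 CPM in shCtrl and 918.5 and 852.8 in shIGF2BP3, and its near-identical copy EIF5AL1 may share its reads. In the MYC network, whose factor activates ODC1 transcription, 12 of 13 genes were tested and 0 were called, with a median of 0.20. MYC was at 4.89 and 11.2 CPM in shCtrl and 17.0 and 6.50 in shIGF2BP3, and MXD3, with the largest mean CPM, at 72.8 and 105.5, then 96.9 and 126.7. Both overlapped between the groups.

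**Figure D5:**
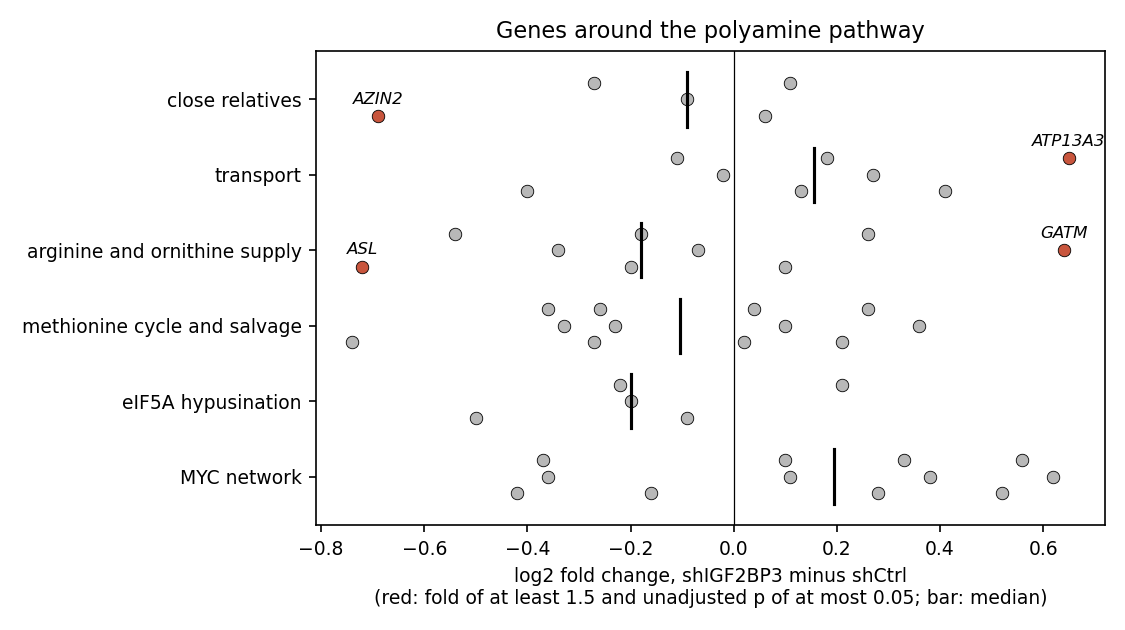
Log2 fold change of the tested genes of the 6 pathway lists, 1 point a gene, with a bar at each list's median. The 4 called genes, in red, are ATP13A3 (0.65), GATM (0.64), ASL (-0.72) and AZIN2 (-0.69), and the medians lie between -0.20 and 0.20.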

How the data were processed

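RNA of H1299 shCtrl (n = 2) and shIGF2BP3 (n = 2) cells was sequenced with an mRNA library kit. The files deposited by the authors hold, for each transcript and library, an estimated count in whole numbers with no normalization and an FPKM value. The submitters' processing notes name CASAVA, Trimmomatic, HISAT2, bedtools, FastQC and GRCh38. The counter, its strand setting and the annotation are not given in the sources used here. Groups and replicate numbers follow the labels, while the columns of the count table give the shIGF2BP3 libraries the numbers 2 and 3. The labels call the libraries of each group biological replicates (bio rep), but separate cultures are not described. The p-values therefore measure the spread between these libraries. Replicates differed by more than counting noise (chi-square per degree of freedom 75.7 in shCtrl and 75.1 in shIGF2BP3).

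Counts and FPKM of 95139 transcripts were summed to 20263 genes. Symbols were given by position from RefSeq GRCh38.p14, where spans were mutual best overlaps (shared part at least 0.5, lead 0.2) or, for AMD1, AZIN2, AHCY and SATL1 among others, where an Ensembl gene lay at least 0.95 inside an unplaced RefSeq gene with an end within 100 bases. This named 18687 genes. Differences between the groups were tested in R 4.3.3 with edgeR 4.0.16 (TMM, filterByExpr with minimum count 10 and total 15, glmQLFit, glmQLFTest, prior count 0.125), with Benjamini-Hochberg adjustment over 13379 genes, and transcript shares with diffSpliceDGE. The biological coefficient of variation, 1 value for all genes, was 22.8%. For genes with many counts, replicates therefore limited the precision more than depth did.

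The genes named are the 10 polyamine genes, IGF2BP3, called genes and the gene with the largest mean CPM of each pathway list, transcripts with at least 10% of a gene, and the 5 genes nearest to ODC1. ATP13A2, MYC and EIF5AL1 were added after their values were seen. The gene set and the lists were chosen with earlier results of these data known. Alternatives were DESeq2 1.42.0, limma 3.58.1 on log2(FPKM + 1) and log2(FPKM + 0.1) with and without a filter, other scalings, no count filter, the replicate number as a block and each library left out. Calls followed the paper's thresholds (1.5-fold or more, unadjusted p of 0.05 or less). The edgeR, DESeq2, limma and transcript share fits were tested on simulated data. 1 gene of the check of the cell line is not reported here.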

Additional observations from a re-analysis of the deposited data

How the results depend on the processing

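With 2 libraries a group, single libraries moved most counts. Beside 0 polyamine genes other than ODC1 called higher, 1 (AMD1) was called with DESeq2, with no low-count filter and with the replicate block (log2 fold change 0.64), and 0 to 1 when each library was left out, 1 without shCtrl replicate 2. The same-numbered libraries deviated together with a correlation of 0.0218 over 13379 genes. This value covers all genes at once, so it cannot show whether part of them varied by replicate number. Replicate numbers here are those of the labels, and the count columns number the shIGF2BP3 libraries 2 and 3. Whether same-numbered libraries belong together is not stated. The replicate block called 772 genes in place of 712. Beside 2 pathway genes called higher, library totals, limma on log2(FPKM + 1) with and without a filter and limma on log2(FPKM + 0.1) called 0, and DESeq2 called 1. Leaving out each library gave 0 (without shCtrl replicate 2) to 3. Beside 2 called lower, DESeq2 and limma on log2(FPKM + 1) with and without a filter called 1, and leaving out each library gave 1 (without shIGF2BP3 replicate 2) to 5 (without shIGF2BP3 replicate 1). Over all genes, leaving out a library called 584 to 1552 genes, with 0 to 84 at an adjusted p under 0.05. The log2 ratio of ODC1 was -0.07 without ENST00000405333 (-0.33 to 0.26 when each library was left out), whose share difference ran from -46.4 to -16.0 points when each library was left out. Signs turned in the leave-out ranges of AZIN1 (-0.30 to 0.20), ALDH9A1 (-0.24 to 0.08), CAV1 (-0.07 to 0.05) and, in points of share, AMD1 ENST00000368882 (-5.0 to 33.4), AMD1 ENST00000368885 (-28.7 to 9.2), SRM ENST00000376957 (-0.1 to 0.6) and PAOX ENST00000278060 (-21.4 to 28.6). The causes were not tested. PAOX was not tested at FPKM of at least 1 in 2 libraries. The median of all genes moved to -0.081 with library totals.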

Other observations

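MTAP, which salvages the methylthioadenosine left by spermidine and spermine synthesis, was at 61.2 and 21.2 CPM in shCtrl and 23.6 and 25.8 in shIGF2BP3. shCtrl replicate 1 stood apart on this scale. On the FPKM scale, which allows for transcript length, MTAP was at 9.41 and 8.83 in shCtrl and 9.73 and 7.61 in shIGF2BP3, and no library stood apart. The transcript ENST00000380172 held 92.3% of the MTAP counts in shCtrl replicate 1 and 27.8%, 26.7% and 27.9% in the other libraries. MTAP was chosen here after its values were seen.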
